A study of Arabidopsis thaliana with 21 samples.

Results

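The 88 protein-coding genes of the chloroplast genome of Arabidopsis thaliana are described here, as the deposited TAIR10 annotation lists them. They are the loci on the chloroplast sequence that the file calls gene and notes as protein_coding_gene, and they make up 88 of 27416 coding genes and 88 of 33602 loci of any class. The nucleus holds 27206 of the other coding genes and the mitochondrion 122. Symbols came from the RefSeq annotation of TAIR10.1, which names 86 of the 88 loci with 78 different symbols. The pair of loci without a RefSeq name, ATCG00870 and ATCG01270, are called by their identifiers.

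The series itself holds 21 RNA libraries of accession Col-0 in 7 groups of 3 replicates. Wild-type plants (WT) gave herbaceous stem, cambium stem and leaf, and plants of the genotype soc1-ful, whose stems the series title calls woody, gave these tissues and also wood stem. All plants grew with 16 h of light a day at 20 °C, and their age is not given in the labels. Poly(A) RNA was selected for the libraries, per the labels. The annotation holds no value for any library, so expression, depth and group differences are not analysed here, and no test was run.

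Chloroplasts descend from a cyanobacterium and keep a small circular genome. It encodes core subunits of the photosynthetic complexes, the large subunit of the carbon-fixing enzyme Rubisco, and part of the machinery that transcribes and translates these genes. Neighbouring plastid genes are often transcribed together, and several carry group II introns, a class of structured introns found in organelles and bacteria. Most other plastid proteins are encoded in the nucleus and imported. Unlike nuclear mRNA, plastid RNA is known to receive poly(A) tails chiefly on its way to degradation.

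The chloroplast sequence has 154478 bp and 5.7 coding genes per 10 kb, against 3.32 on the mitochondrial sequence and 2.28 over the nuclear chromosomes. Coding sequence covered 51.1% of the chloroplast (78944 bp), 18.3% of the mitochondrial sequence and 28.0% of the nuclear chromosomes. The chloroplast is thus the most densely coding of the 3 genomes in this file. The coding share of single nuclear chromosomes ranged from 25.1% on chromosome 2 to 29.2% on chromosome 1. With whole gene spans, introns included, the share was 58.9% in the chloroplast, 25.8% in the mitochondrion and 50.1% in the nucleus. By that measure the chloroplast and the nucleus lie much closer together. All 88 genes have 1 isoform and 0 have an annotated untranslated region, so each gene begins and ends with its coding sequence. In the nucleus, 21052 of 27206 coding genes have exonic bases outside the coding sequence of the first listed isoform, and 5804 have more than 1 isoform.

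The genome is divided by a large inverted repeat, a stretch present in 2 copies on opposite strands. An exact search gave 26264 bp per copy, at positions 84171 to 110434 and 128215 to 154478. The copies are identical base for base. The large single copy region (1 to 84170) holds 60 genes wholly inside it, of which 38 lie on the minus strand. The small single copy region (110435 to 128214) holds 10, and each repeat copy 7. Coding sequence covered 75.0% of the small single copy region, 51.3% of the large one, and 42.9% and 42.5% of the repeat copies. The repeat copies had the highest GC content, 42.3%, against 34.0% and 29.3% for the large and small single copy regions. Each copy also holds 11 of the 45 RNA genes, among them the rRNA genes, whose GC content is 55.4%.

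**Figure D1:**
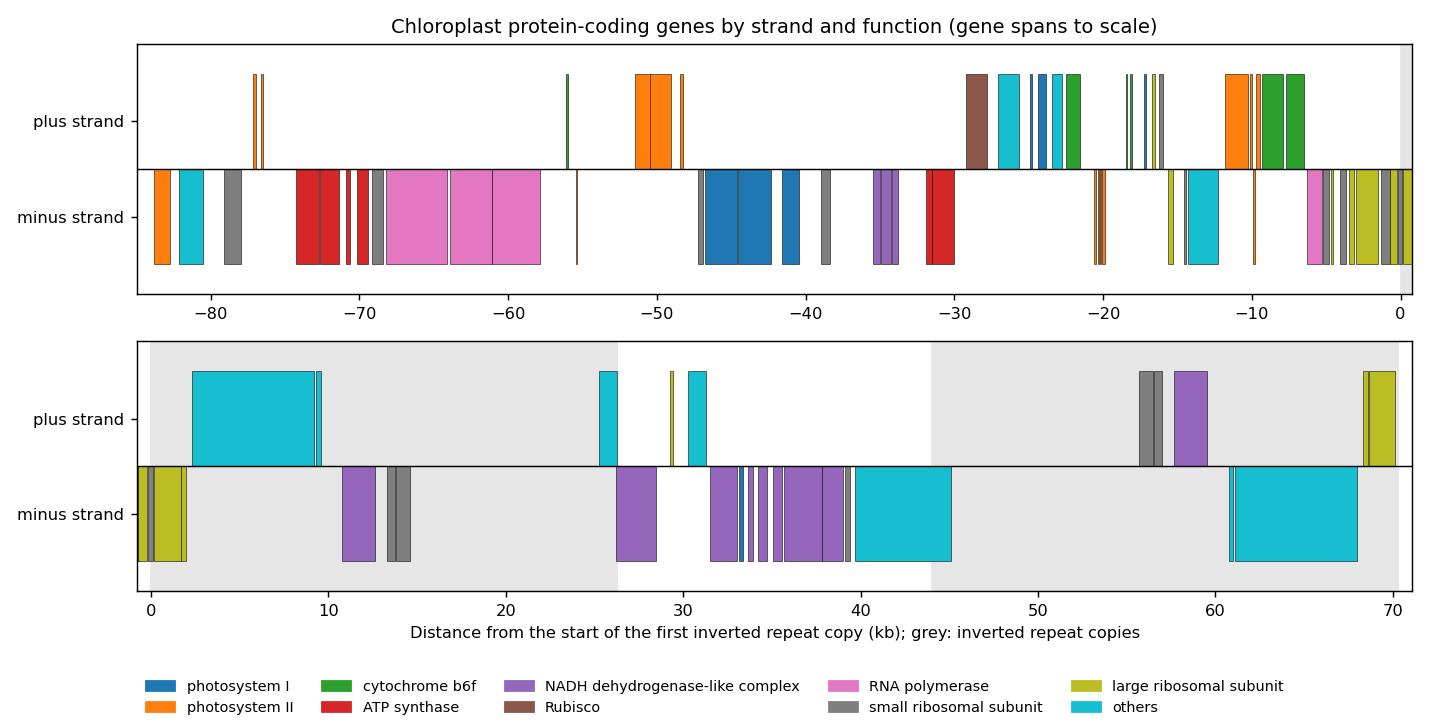
Gene spans of the 88 coding genes, drawn to scale above the line for the plus strand and below it for the minus strand, against the distance in kb from the start of the first inverted repeat copy. Colours mark functional groups and grey marks the 2 repeat copies of 26264 bp, whose genes mirror each other.

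By function, photosystem II has 15 genes, each present at 1 locus. The small ribosomal subunit also has 15 loci, but these fall to 13 distinct sequences and 12 symbols because of repeat copies and the split rps12. Photosystem II is the complex that splits water, and its genes take up 8.52% of the summed coding length because most are small. They range from psbT at 102 bp to psbB, which encodes an antenna protein of the core, at 1527 bp, with a median of 186 bp. Photosystem I has 7 genes including the assembly factors ycf3 and ycf4, from psaI (114 bp) to the reaction centre gene psaA (2253 bp). The cytochrome b6f complex, which carries electrons between the photosystems, has 6 genes, from petN (90 bp) to petA (963 bp). The 6 ATP synthase genes run from atpH (246 bp), which encodes the ring subunit, to atpA (1524 bp), which encodes the alpha subunit. Rubisco has 1 gene, rbcL, with 1440 bp.

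The NADH dehydrogenase-like complex, which takes part in cyclic electron flow around photosystem I, has 12 loci for 11 genes, from ndhE (306 bp) to ndhF (2241 bp). The 4 RNA polymerase genes are long, from rpoA (990 bp) to rpoC2 (4131 bp), and take up 13.1% of the coding length. Ribosomal proteins account for 26 loci: 15 of the small subunit, from an rps12 part of 114 bp to rps2 (711 bp), and 11 of the large subunit, from rpl36 (114 bp) to rpl2 (825 bp). The other 11 loci include matK, an intron maturase, accD, a subunit of acetyl-CoA carboxylase, clpP, a protease subunit, and ccsA, needed for cytochrome c synthesis. They also include cemA, an envelope membrane protein gene, and the very long ycf1 and ycf2. These 11 hold 32.8% of the coding length, from ATCG00870 and ATCG01270 at 234 bp each to ycf2 at 6885 bp. Over all 88 genes the median coding length was 472.5 bp, against 438 bp in the mitochondrion and 1041 bp in the nucleus. Coding lengths were under 150 bp in 14 loci and over 3000 bp in 5, namely rpoC2, rpoB, the longer ycf1 locus and both ycf2 loci. The shortest, petN, encodes 29 amino acids and the longest, ycf2, 2294.

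**Figure D2:**
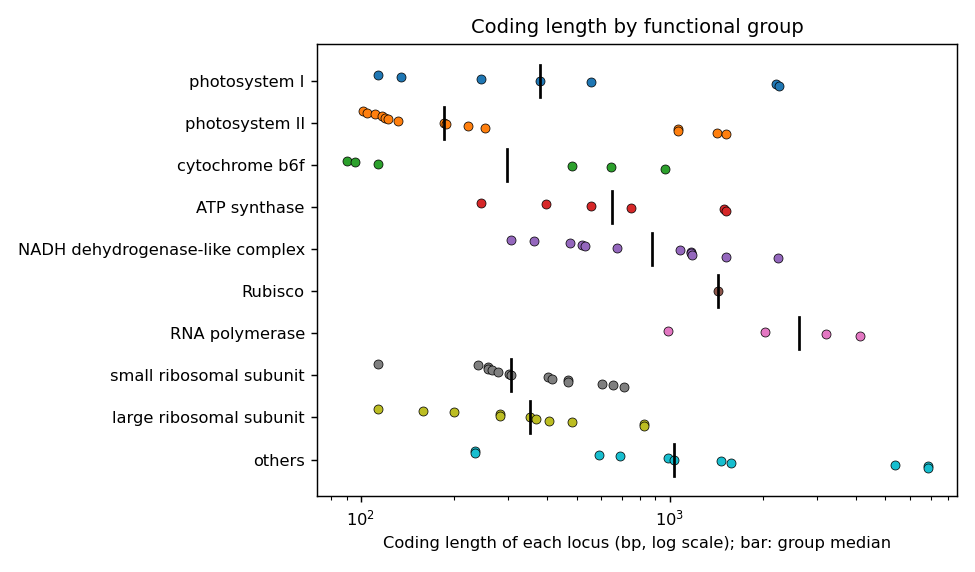
Coding length of each locus in bp on a log scale, with 1 point per locus and a bar at the median of each functional group. Photosystem II has the lowest median, 186 bp, and the RNA polymerase genes the highest, 2631 bp.

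Of the 88 loci, 7 genes occur in 2 copies, 1 in each repeat copy on opposite strands. They are rpl2 and rpl23, which encode proteins of the large ribosomal subunit, rps7 and the 3′ part of rps12, which belong to the small subunit, ndhB, ycf2, and the unnamed pair ATCG00870 and ATCG01270. The first copies lie at 84337 to 85843 (rpl2), 85862 to 86143 (rpl23), 86474 to 93358 (ycf2), 93495 to 93728 (ATCG00870), 94941 to 96795 (ndhB), 97478 to 97945 (rps7) and 97999 to 98793 (rps12). Each pair was identical over the whole gene span, introns included. A read from any of these 14 loci therefore matches both copies, and sequence alone cannot place it. Counted as distinct coding sequences, the 88 loci fall to 81.

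Genes also run across the ends of the repeat. The gene rps19, for a protein of the small ribosomal subunit, has 113 of its 279 coding bases in the first copy and 166 in the large single copy region. The longer ycf1 locus, ATCG01130, has 1030 of 5361 bases in the second copy. The shorter one, ATCG01000, has the same 1030 bases in the first copy and ends 2 bases into the small single copy region, so that 1032 bp remain of the reading frame. The gene ndhF begins in the small single copy region and ends 37 bases inside the first repeat copy. The 3 junctions that lie within or at the end of these genes are printed on the plus strand of the chloroplast sequence, with bases of the repeat in capitals, because they show where a gene passes from repeated to unique sequence.
Large single copy into first copy, chrC:84156-84185, within rps19: gtgggtataatggtgGATGCCCGGGACCAA
First copy into small single copy, chrC:110420-110449, at the end of the shorter ycf1: AAAAAGAGGATCATTaaaaaaatcaataca
Small single copy into second copy, chrC:128200-128229, within the longer ycf1: tttcaaaccataaaaAATGATCCTCTTTTT

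Reading the second of these with the third shows capitals that are reverse complements of each other and lower-case flanks that differ. The stop codon of the shorter ycf1, TAA, is made of the last repeat base and the first 2 bases beyond it, at the second junction.

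Introns interrupt 15 of the 88 coding sequences (17.0%), against 9.84% of mitochondrial and 75.5% of nuclear coding genes. There are 16 introns in the 15 loci, or 13 introns in 12 genes when repeat copies are counted once. The genes are rps16, atpF, rpoC1, ycf3, clpP, petB, petD, rpl16, rpl2, ndhB, ndhA and the 3′ part of rps12, and clpP has 2 introns. In functional terms they are spread thinly, with none in photosystem II or Rubisco, 1 locus each in photosystem I, ATP synthase, RNA polymerase and the other genes, 2 in cytochrome b6f, and 3 each in the ribosomal subunits and the NADH dehydrogenase-like complex. Lengths ran from 515 bp in the second intron of clpP to 1080 bp in ndhA, with a median of 712 bp over all 16. The median intron between coding parts had 98 bp in the nucleus and 1407.5 bp in the mitochondrion. The shortest chloroplast intron thus exceeds the nuclear median, although nuclear introns reach 10234 bp.

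Some first coding parts are tiny. In petB, for cytochrome b6, the first part has 6 bases and the intron 804 bp. In petD, for subunit IV of the same complex, it has 8 bases before an intron of 709 bp. In rpl16, for a large-subunit protein, it has 9 bases before 1056 bp. The other first parts have 40 bases (rps16) to 553 bases (ndhA). In rps12 the final part has 26 bases. The intron fell between codons in 7 of the 13, after the first codon base in 4 and after the second in 2.

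**Figure D3:**
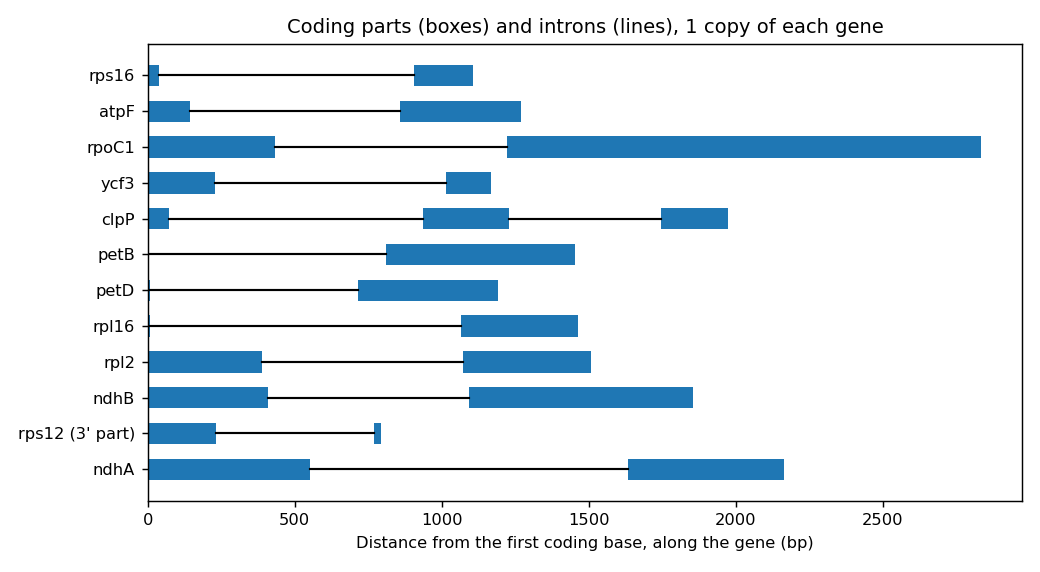
Coding parts as boxes and introns as lines for the 12 intron-bearing genes, 1 copy of each, with the distance from the first coding base in bp. The first parts of petB, petD and rpl16 (6, 8 and 9 bases) are barely visible beside introns of 804, 709 and 1056 bp.

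Group II introns are known to begin with GTGNG, where the fourth base is usually a pyrimidine, and to end with A and a pyrimidine. As annotated, 10 of the 13 introns begin with GTGNG, all 10 with a pyrimidine at the N, and 11 end with A and C or T. The first 20 bases of each intron are shown on the coding strand, 5′ to 3′, with a GTGNG start in capitals, because this signal is what the introns share although their lengths and host genes differ.
rps16 (chrC:5284-6148): gtacgacttgaattgaagga
atpF (chrC:11939-12653): GTGTGagttgttcatttcaa
rpoC1 (chrC:21862-22652): GTGTGatttgatcgaaattt
ycf3 (chrC:42737-43523): GTGCGactatctccactata
clpP intron 1 (chrC:70945-71811): GTGCGacttgtcagatatat
clpP intron 2 (chrC:70138-70652): tggcgccaatgagttttttt
petB (chrC:74847-75650): GTGTGacttgttagaattga
petD (chrC:76489-77197): GTGTGacttgaactattgat
rpl16 (chrC:81588-82643): GTGTGactcgttggtttagg
rpl2 (chrC:84772-85453): agtgcggtttgaactatttg
ndhB (chrC:95703-96387): GTGCGgttcgtttgagaaat
rps12 (chrC:98025-98561): GTGCGttgtagattcttatc
ndhA (chrC:120377-121456): GTGCGattcgttgaaacaga

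The introns of rps16, rpl2 and the second of clpP have no capitals. In rpl2 the annotated intron begins 1 base before a GTGCG, and moving both ends by 1 base leaves the spliced sequence unchanged. The rpl2 intron ends in CA as annotated and in AA when shifted, so neither placement gives a final A and pyrimidine. For rps16, which begins GTACG, and for the second clpP intron, no shift of up to 10 bases kept the spliced sequence and gave a GTGNG start. The last 20 bases of a few introns show the other end, with the final A and pyrimidine in capitals.
petB: cttggtttacctatctcaAT
petD: aagaattcacctatcccaAT
ndhA: atgttctcgccgactaggAT
clpP intron 2: accttttctattatatcatc

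The gene rps12, which encodes a protein of the decoding site of the ribosome, is split. Its 5′ part, ATCG00065, lies at 69611 to 69724 on the minus strand and has 114 bp. Its 3′ part of 258 bp is present in both repeat copies, as ATCG00905 at 97999 to 98793, 28274 bp away on the same strand, and as ATCG01230 at 139856 to 140650 on the plus strand. TAIR10 lists these as 3 separate loci, while TAIR10.1 joins the 5′ part with each 3′ part and marks the join as trans-splicing, the joining of exons from separate RNAs. The joined frame has 372 bp, or 124 codons, with 0 internal stops. The bases just before the 3′ part ATCG00905 end in CC, so they lack the final A and pyrimidine. The 20 bases that follow the 5′ part (chrC:69591-69610, minus strand) begin like the introns above.
After the 5′ part of rps12: GTGCGactcgtttagatcat

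Of the 87 pairs of neighbouring coding genes, 64 (73.6%) lie on the same strand. In the mitochondrion 58.7% of 121 pairs did, and in the nucleus 52.5% of 27201. The median gap was 186.5 bp within same-strand pairs, 528 bp where genes point towards each other (11 pairs) and 819 bp where they point apart (12 pairs). Gaps under 100 bp, overlaps included, occurred in 18 same-strand pairs, 2 convergent pairs and 0 divergent pairs. The widest gaps, 10611 bp, are those between ycf1 and the 3′ part of rps12 in each repeat copy, where 9 RNA genes lie.

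**Figure D4:**
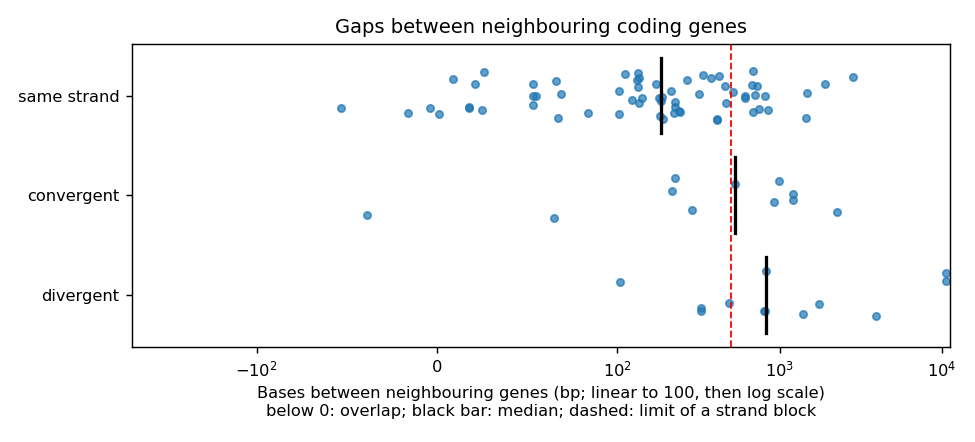
Bases between neighbouring coding genes for same-strand (64), convergent (11) and divergent (12) pairs, on an axis that is linear to 100 bp and logarithmic beyond, with the median as a black bar. The dashed line marks the 500 bp limit used for strand blocks, and values below 0 are overlaps.

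With at most 500 bp between gene spans, and no gene of any class on the other strand between them, 70 of the 88 genes fell into 21 strand blocks of 2 to 11 genes. Such a block is an arrangement that could be transcribed as 1 unit, and the annotation does not show that it is. The other 18 genes stood alone, among them psbA, matK, rbcL, accD, ndhF and both ndhB loci. For ndhB this depends on its TAIR10 start, which leaves 682 bp to rps7. In TAIR10.1 the ndhB locus ATCG00890 extends to 97164, and rps7 lies at 97478 to 97945 on the same strand. The distance between these genes is within the limit, and the same holds in the other repeat copy. Genes of a single functional group made up 11 blocks, and 8 blocks mixed groups. The other 2 hold ycf2 with ATCG00870 or ATCG01270, which belong to no shared functional group.

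The largest block has 11 genes over 8243 bp (77901 to 86143, minus strand). In the direction of transcription it begins with rpl23 and rpl2 and ends with rpoA, and it includes rps19, rpl22, rps3, rpl16, rpl14 and rpl36. It holds 10 ribosomal protein genes and then rpoA, the alpha subunit of the plastid-encoded RNA polymerase, and its order resembles the ribosomal protein operons of bacteria. The second has 9 genes over 13580 bp (115665 to 129244, minus strand), from ycf1 through rps15, ndhH, ndhA, ndhI, ndhG, ndhE and psaC to ndhD. Here 6 genes of the NADH dehydrogenase-like complex flank psaC, which encodes the iron-sulfur subunit of photosystem I. Only 1 base separates ndhH from ndhA.

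The third block has 5 genes over 12309 bp (14021 to 26329, minus strand) and runs rpoB, rpoC1, rpoC2, rps2 and atpI. The first 3 encode RNA polymerase subunits, rps2 a ribosomal protein, and atpI a membrane subunit of ATP synthase. Beyond a gap of 513 bp, just over the limit, lie atpH, atpF and atpA on the same strand, which form a block of their own. The other blocks of 4 are psaI, ycf4, cemA and petA on the plus strand (59247 to 62619) and psbE, psbF, psbL and psbJ on the minus strand (63538 to 64322). The last of these packs 4 small photosystem II genes into 785 bp, with 9 bp between psbE and psbF, the genes of the subunits of cytochrome b559.

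Smaller blocks were of both kinds. The photosystem I reaction centre genes psaA and psaB are 25 bp apart and are followed by rps14. The genes ndhC, ndhK and ndhJ form a block of 3, and petL and petG, psbK and psbI, and psbD and psbC blocks of 2. Genes of different groups share the block of psaJ, rpl33 and rps18, with a photosystem I subunit and proteins of both ribosomal subunits, and that of clpP and the 5′ part of rps12. Psb and pet genes also adjoin from psbB to petD. There psbB and psbT form 1 block and psbH, petB and petD another, all on the plus strand, and psbN lies between them on the minus strand, 65 bp from psbT and 104 bp from psbH. That 1 gene is what divides the run, since the distances alone are within the limit.

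Coding sequences overlapped in 4 pairs, 3 of them on the same strand. The largest overlap, 53 bp, joins psbD, for the D2 reaction centre protein, to psbC, for the antenna protein CP43. In atpB and atpE, for the beta and epsilon subunits of ATP synthase, 4 bp are shared, and the ATGA holds the start codon of atpE and the stop codon of atpB. The ribosomal protein genes rpl22 and rps3 share 16 bp. In each of these pairs the genes are read in different frames over the shared bases. The fourth pair, the shorter ycf1 and ndhF, lie on opposite strands and share 39 bp at their 3′ ends, across the repeat boundary. The shared bases are shown in capitals with 15 bases on either side, on the coding strand of the same-strand pairs and on the plus strand for the last.
psbD and psbC (chrC:33705-33787): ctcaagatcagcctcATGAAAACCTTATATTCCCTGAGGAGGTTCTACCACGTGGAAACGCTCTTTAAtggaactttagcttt
atpB and atpE (chrC:52645-52678): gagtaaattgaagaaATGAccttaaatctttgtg
rpl22 and rps3 (chrC:83452-83497): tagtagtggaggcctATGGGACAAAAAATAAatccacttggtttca
ycf1 and ndhF (chrC:110383-110451): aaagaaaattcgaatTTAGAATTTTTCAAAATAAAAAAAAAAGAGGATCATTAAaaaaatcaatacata

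The overlap of psbD and psbC depends on which start codon is taken for psbC. In tobacco, psbC is known to be translated from a GTG inside psbD. The Arabidopsis sequence has a GTG in the frame of psbC 12 codons after the annotated ATG, at position 33756, and from there the overlap would be 17 bp. Both TAIR10 and TAIR10.1 annotate the ATG.

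A further nested pair involves an RNA gene. The maturase gene matK lies entirely within the intron of a tRNA gene, ATCG00030, on the same strand. That intron has 2559 bp, of which matK takes 1581 bp.

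ATG opens 82 of the 88 coding sequences. GTG opens rps19, both ycf1 loci and ndhD, and the 3′ parts of rps12 begin with ACT, since their start lies in the other part. In ndhD the annotations differ. TAIR10 starts at a GTG, and TAIR10.1 starts 18 bases later at an ACG that it marks as subject to RNA editing, the C-to-U conversion that makes an AUG of an ACG in the transcript. Both codons are in capitals in the sequence of the coding strand.
ndhD (chrC:117159-117191, minus strand): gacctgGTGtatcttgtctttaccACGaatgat

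TAA closed 54 coding sequences, TAG 21 and TGA 12. The remaining locus is the 5′ part of rps12, which ends inside the frame. In all 88 loci the coding length was a multiple of 3 and no stop codon lay inside the frame.

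Plastid ribosomes, like bacterial ones, can bind mRNA at a purine-rich Shine-Dalgarno motif shortly before the start codon, although many plastid genes are known to do without it. GGAG, GAGG or AGGA, which overlap in longer runs such as AGGAGG, occurred on the coding strand within 20 bases before 39 of 86 start codons (45.3%). Of all 308956 windows of that length on both strands of the chloroplast sequence, 12.0% hold at least 1 of the 3. The 3′ parts of rps12 were left out, and copies in the repeat were counted separately. Starts are those of TAIR10. TAIR10.1 places the starts of matK, ycf3, ndhD and both ndhB loci elsewhere, and all of these were counted as lacking a motif. For ycf3, the 20 bases before the TAIR10 start are the end of an intron in TAIR10.1. The distance from the motif nearest the start codon to that codon ranged from 3 to 15 bases with a median of 7.

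By function, 5 of 6 ATP synthase genes, 8 of 13 small-subunit ribosomal genes and 4 of 7 photosystem I genes had a motif. So did 7 of 15 photosystem II genes, 5 of 12 loci of the NADH dehydrogenase-like complex, 3 of 11 large-subunit ribosomal genes, 1 of 4 RNA polymerase genes, rbcL, and 5 of the 11 other loci. None of the 6 cytochrome b6f genes had it. These shares were not tested. Examples with the motif in capitals, each ending in the start codon, show how close it lies. The annotated start of psbC and those of petB and rpoB have no motif and are listed for comparison.
psaA: tccggaaaGAGGAGGActcaatg
psbD: agatgaatAGGAGGAtcgctatg
psbA: aataaaccaAGGAttttaccatg
rbcL: tgacttgtagGGAGGgacttatg
atpF: tagctagaaGAGGAGattatatg
ycf1: aaaagaaaaaagGGAGGtttgtg
rps19: aaaatAGGAGttaattaactgtg
psbC, annotated ATG: ggcggctcaagatcagcctcatg
psbC, inner GTG: ccctGAGGAGGttctaccacgtg
petB: gcattgtatatttccggaatatg
rpoB: aaatgggaaattcaaaaaagatg

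The annotated start of psbC has no motif within 20 bases, and the inner GTG has a GAGGAGG that ends 9 bases before it. The GTG starts of rps19 and ycf1 each have a motif, and that of ndhD in TAIR10 has none. A match is a run of letters and does not show that a ribosome binds there.

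The coding sequences have a GC content of 37.0%, against 33.7% in their introns and 30.4% outside all annotated genes. By codon position it was 44.9% at the first base, 37.5% at the second and 28.7% at the third. Among the 57 loci with at least 300 coding bases, the third-base GC content ran from 19.6% in rps3 and 19.7% in ndhA to 36.5% in both ycf2 loci, with a median of 27.3%.

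In the 6 codon families that end in C or T (Phe, Tyr, His, Asn, Asp and Cys), C was the third base in 24.4% of 5818 codons over all loci. The gene psbA, which encodes the D1 protein of photosystem II, a protein known for its rapid turnover in the light, stood highest of the 54 loci with at least 20 such codons, at 53.2% (42 of 79). Other high values were those of rbcL with 34.6% (36 of 104) and both ndhB loci, also 34.6% (27 of 78). The lowest were ndhG and ndhJ at 13.5% each (5 of 37), and the median was 23.6%. By group, with codons pooled over all loci, photosystem II had 32.1% and the NADH dehydrogenase-like complex 19.9%. The first value includes psbA, and the second counts both identical ndhB loci. The other photosystem II genes with at least 20 such codons were psbD (32.6%), psbC (31.6%) and psbB (23.6%).

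**Figure D5:**
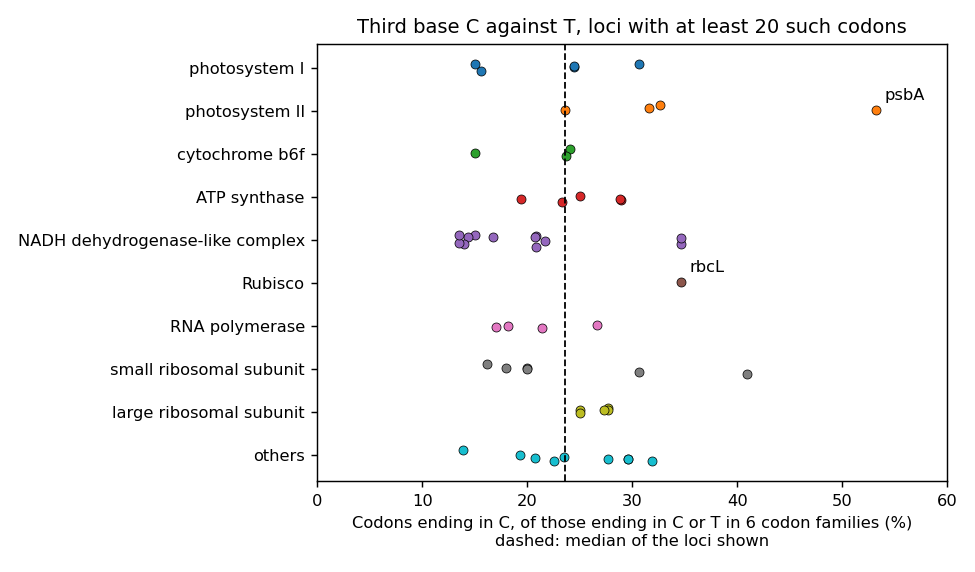
Percent of codons with C as the third base, of those ending in C or T in 6 codon families, with 1 point for each of the 54 loci that have at least 20 such codons. The point of psbA lies at 53.2%, to the right of all others, and the dashed line marks the median of 23.6%.

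Pieces of plastid genes are known to be copied into the nuclear and mitochondrial genomes. Exact stretches of at least 50 bases from a coding part were found in the nuclear chromosomes for 16 of the 88 loci and in the mitochondrial sequence for 6, with 5 loci in both and 71 in neither. The nuclear count includes both loci of ndhB, ycf2 and ycf1, and the mitochondrial count both ycf1 loci. In each of these pairs the stretches are the same. With stretches of at least 100 bases, 8 loci had nuclear and 4 mitochondrial copies. Each coding part was read as overlapping words of 50 bases, and 0 loci had more than 50% of their words in either genome. The highest nuclear shares were those of the shorter ycf1 locus (23.9%) and rps2 (16.0%). The highest mitochondrial shares were those of the shorter ycf1 locus (20.2%), rbcL (14.5%) and psbA (7.7%). The gene rpoB had words in the mitochondrion (3.38%) and none in the nucleus.

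The longest stretch, 200 bp of ycf1, occurs on chromosome 2 at 3495792 to 3495991 and, identically, in the mitochondrial sequence of TAIR10.1 at 42896 to 43095. Stretches of psbA, psaA and rbcL were likewise found in the same extent in both places, at most 82 bp, 83 bp and 91 bp, and all of these nuclear sites lie on chromosome 2. That chromosome is known to carry a large insertion of mitochondrial DNA near its centromere. The longest nuclear stretch of rpoC2, 186 bp, lies on chromosome 5 at 11765768 to 11765953, and that of ccsA, 116 bp, on chromosome 4 at 5267890 to 5268005.

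In the deposited annotation, 12 nuclear genes contain such stretches, and 7 of them are pseudogenes, 3 transposable element genes and 2 protein-coding genes. Both of the latter are on chromosome 2. The stretches of rbcL cover 55.2% of the 607 exonic bases of AT2G07732, and those of ycf1 57.0% of the 600 exonic bases of AT2G07739. The pseudogenes AT3G33000, AT3G33002 and AT3G33004 follow one another on chromosome 3 within 13537077 to 13541488. They hold stretches of atpI, rps2 and rpoC2, in the same order as these genes have in the chloroplast.

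Coding positions were identical in TAIR10 and TAIR10.1 for 78 of the 88 loci. Besides rps12 and ndhD, the gene models of matK, ycf3 and ndhB differed. TAIR10 starts matK 66 bp earlier, with 1581 bp against 1515 bp. It gives ycf3, needed for photosystem I assembly, 2 coding parts and 381 bp, where TAIR10.1 gives 3 parts and 507 bp, with a first part of 126 bp and a further intron of 714 bp. Both ndhB loci have 1170 bp in TAIR10 and 1539 bp in TAIR10.1, because TAIR10 starts 369 bp later. The loci ATCG00870 and ATCG01270 have no counterpart among the 85 coding sequences of TAIR10.1.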

How the data were processed

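The deposited file is the TAIR10 gene annotation, with feature start and end positions in bp counted from 1 and a score on 0 of its 590264 lines. The labels do not state how the authors chose or altered it. The submitters' processing notes name TAIR10, Trimmomatic 0.0.3 and TopHat2 2.0.8, without their roles. No column belongs to a library, so depth and expression are not analysed here. Loci were taken from the chloroplast sequence by feature type and note. Symbols were assigned from the RefSeq TAIR10.1 annotation by identical coding positions (78 loci) or shared boundaries of coding parts (8).

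All sequences printed are from RefSeq TAIR10.1, whose chloroplast and nuclear lengths equal those of TAIR10, and all reading frames of the 88 loci were intact at TAIR10 positions. Of 27206 nuclear coding genes, 27170 (99.9%) were intact. The mitochondrial sequence differs in length (366924 bp against 367808 bp), so its positions are those of TAIR10.1. Introns are gaps between coding parts, and strand blocks allow 500 bp between genes. The inverted repeat was found with seeds of 200 bases, and copies elsewhere with exact words of 50 bases inside single coding parts, on both strands. Python 3.11.15, numpy 2.4.6, pandas 2.3.3 and matplotlib 3.10.9 were used. On simulated data the steps recovered all 5 inverted repeats, 63 overlapping pairs, 40 blocks and 1034 words. The simulated blocks were divided by strand alone, with all gaps under 500 bp and no genes of other classes. The gap limit and the rule on genes of other classes were therefore not checked in this way.

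The genes and lists were chosen with earlier results of these data known. By rule, genes were named if they have introns, lie in or across the repeat, overlap, or have other start codons than ATG. The rule also took those at the extremes of length in a functional group and at the ends of blocks of 4 or more. Further genes were named outside this rule, among them members of smaller blocks, genes that stood alone and some of the other loci. Genes with other values given (codon ends, motifs, copies elsewhere) were chosen after their values were seen. Some values and 1 sequence are not reported here.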

Additional observations from a re-analysis of the deposited data

How the results depend on the processing

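Coding density stayed between 51.1% and 58.9% with gene spans, 1 repeat copy left out, or TAIR10.1. Loci numbered 81 with identical copies counted once and 85 in TAIR10.1, and those with introns 12 and 15. Strand blocks numbered 22 with gaps of at most 250 bp, 1000 bp or no limit, and 21 with genes of other classes ignored. These counts do not show that the same genes stay together. With 1000 bp, the 513 bp between atpH and atpI no longer divide their blocks. The 611 bp between psbA and matK, which stood alone, are then also within the limit. They were not recounted with the gene models of TAIR10.1. Counting 100 identical bases as a copy raised the loci present in 2 copies from 14 to 17, by rps19 and both ycf1 loci. Overlapping pairs numbered 3 with at least 10 shared bases and 4 with gene spans or in TAIR10.1. The motif before the start codon was found in 33 loci within 15 bases (8.69% of all windows), 39 within 30 bases (18.1%) and 30 with GGAG or GAGG alone (7.11%). With words of 100 bases, 8 loci in place of 16 had nuclear copies, since longer words demand longer matches, and 4 in place of 6 mitochondrial ones. The words of 100 bases, the window of 15 bases and the TAIR10.1 length (median 483 bp) were chosen after seeing the data. No paired analysis was possible because the results are counts of annotated features and come from no test.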
